A study of Saccharomyces cerevisiae with 6 samples.

Results

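Budding yeast cells lacking the GATA repressor Dal80 and grown in proline-containing medium (dal80Δ Pro) were compared with wild-type cells grown in glutamine-containing medium (WT Glu). These 2 groups hold 4 of the 6 RNA-seq libraries of the series, with 2 biological replicates each. The remaining 2 libraries, wild type in proline-containing medium (WT Pro), are given beside them. The features were all 5791 nuclear and mitochondrial open reading frames (ORFs) listed as genes with a systematic name starting in Y or Q, and 5645 of them passed a filter on low read counts. The libraries were strand-specific and made from rRNA-depleted total RNA.

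The dal80Δ strain is MATa and carries ura3, his3, trp1 and a kanMX replacement of DAL80. The wild type is MATα and carries the same ura3, his3 and trp1 markers. Each genotype was 1 strain, harvested at mid-log phase from a minimal glucose medium that held the named nitrogen source. Nitrogen source, DAL80 and mating type therefore differ together between dal80Δ Pro and WT Glu, and their parts in any single difference cannot be told apart. The question addressed was which transcript levels of glutamine-grown wild type are found again in the mutant on proline, which stay apart, and which lie on the other side.

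In Saccharomyces cerevisiae, a preferred nitrogen source such as glutamine keeps genes for the uptake and breakdown of poorer sources silent, which is called nitrogen catabolite repression (NCR). The GATA activators Gln3 and Gat1 switch these genes on when only a poor source such as proline is present, and Ure2 holds Gln3 in the cytoplasm when glutamine is plentiful. Dal80 and Gzf3 bind the same GATA motifs and act as repressors. DAL80 is itself an NCR-sensitive gene, so wild-type cells in glutamine make little of its mRNA.

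DAL80 had 9 and 5 reads in the dal80Δ Pro libraries, 5160 and 3727 in WT Pro and 16 and 18 in WT Glu. Its normalised read count, which is the read number multiplied by the factor the authors applied to each library, was 6.15 and 2.75 in dal80Δ Pro against 16 and 17.7 in WT Glu. Both dal80Δ Pro libraries thus had less DAL80 signal than either WT Glu library, and the ratio of the pooled counts was 0.253 (95% counting interval, exact binomial, 0.126 to 0.484). The log2 fold-change of DAL80 over WT Glu was -1.78 ± 0.31 (SE; limma, adjusted p = 0.0018), and with only the 4 libraries of these groups in the fit the call was lost (adjusted p = 0.018). Total reads on ORFs ranged from 14782341 to 19968312 in dal80Δ Pro, from 12304015 to 12550777 in WT Pro and from 16519210 to 17079133 in WT Glu. The replicates differed by over 2-fold in 40 of the 5645 ORFs in dal80Δ Pro, in 55 in WT Pro and in 181 in WT Glu.

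Mating type was read in the same way. HMRA1, the silent cassette copy to which reads of the MATa1 gene map, had 502 and 905 reads in dal80Δ Pro, 0 and 0 in WT Pro and 0 and 0 in WT Glu. With a floor of 3 reads per WT Glu library, HMRA1 was at least 141-fold higher in dal80Δ Pro. All 5 genes specific to α cells, namely MF(ALPHA)1, MF(ALPHA)2, STE3, SAG1 and YLR040C, were called lower in dal80Δ Pro. MF(ALPHA)1, which encodes α-factor, had 23.9 and 25.9 normalised reads in dal80Δ Pro, 38242 and 30843 in WT Pro and 25870 and 25323 in WT Glu. STE3, the receptor for a-factor, had 121 and 135 normalised reads in dal80Δ Pro, 5673 and 4734 in WT Pro and 7936 and 7404 in WT Glu. In both genes the dal80Δ Pro libraries lay far below the wild-type libraries of either medium. The mutant itself was grown in proline only. MF(ALPHA)2 was near its floor in the mutant, with 1 and 3 reads in dal80Δ Pro against 9532 and 5767 in WT Glu, a ratio of 0.000161 (95% counting interval 4.38e-05 to 0.000412).

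All 7 genes specific to a cells were called higher in dal80Δ Pro. MFA1, encoding a-factor, had 1259 and 1443 normalised reads in dal80Δ Pro, 354 and 388 in WT Pro and 4 and 4.92 in WT Glu. STE2, the α-factor receptor, had 1894 and 2034 in dal80Δ Pro, 1131 and 918 in WT Pro and 69 and 85.5 in WT Glu. The MATα wild type in proline therefore also had more of these transcripts than in glutamine, and all 7 were called higher in WT Pro too, although HMRA1 had 0 reads there. As in any bulk sample, fewer cells that express a gene and less RNA per cell cannot be told apart. AGA2, the binding subunit of a-agglutinin, stood at 93.5 and 126 normalised reads in dal80Δ Pro, below the 291 and 191 in WT Pro, and at 5 and 5.9 in WT Glu.

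A gene was called when limma's adjusted p was at most 0.01 and the log2 fold-change at least 1 in size, and it was held within 2-fold when the 95% interval of its log2 fold-change lay wholly between -1 and 1. In dal80Δ Pro, 671 ORFs were called higher than in WT Glu (11.9% of those tested) and 754 lower (13.4%). A further 2852 ORFs (50.5%) were held within 2-fold of the glutamine level, and 1368 (24.2%) were neither called nor held. Calls in either direction made up 25.2%. Regardless of size, both dal80Δ Pro libraries lay above both WT Glu libraries in 40.7% of ORFs and below both in 41.6%. The median log2 fold-change over all ORFs was 0.00. Leaving out the genes of the mating lists and cassettes gave 660 higher and 735 lower. Without dal80Δ Pro replicate 1, 416 ORFs were called higher and 521 lower.

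The balance of higher and lower calls depends on how libraries are scaled. The 17 genes of glycolysis and fermentation took 5.31% and 6.13% of ORF reads in dal80Δ Pro against 13.0% and 14.3% in WT Glu, and the 137 cytosolic ribosomal protein genes 7.33% and 8.74% in dal80Δ Pro against 12.2% and 10.3% in WT Glu. When libraries were scaled to their total ORF reads in place of the deposited factors, the median log2 fold-change moved to 0.66, with 1888 ORFs called higher and 179 lower. All values are on the deposited scaling unless stated, and a fold-change is thus relative to the typical ORF.

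**Figure D1:**
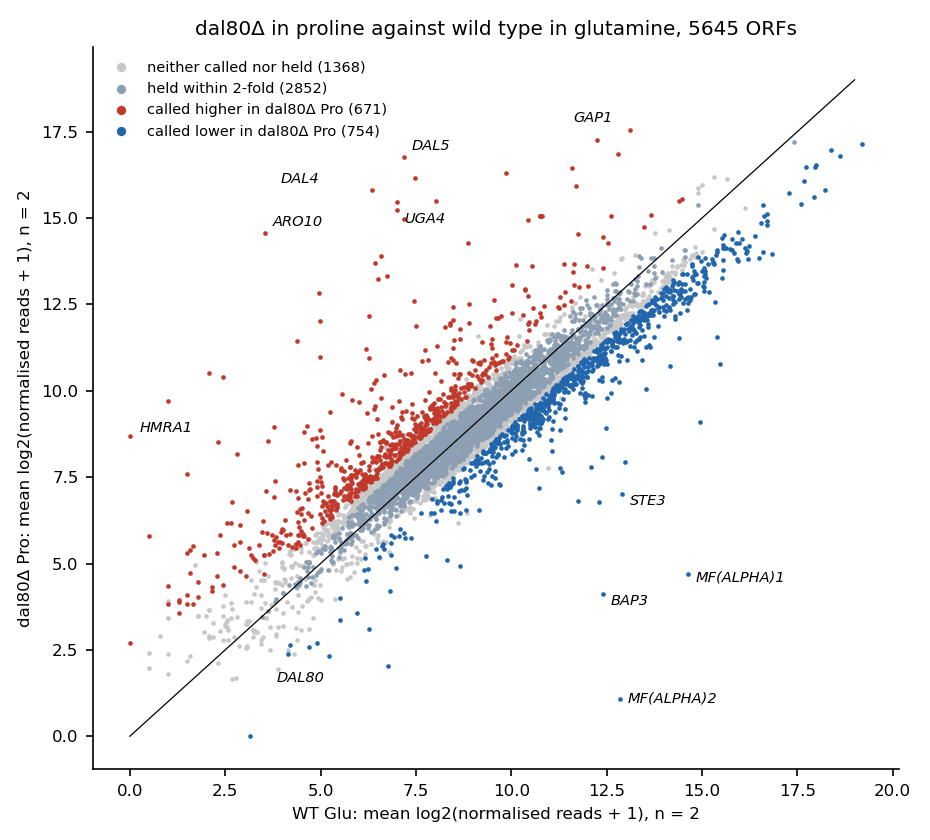
Mean log2(normalised reads + 1) of the 2 dal80Δ Pro libraries (y axis) against that of the 2 WT Glu libraries (x axis), with 1 point per ORF and the line of equal level. Red points (671) were called higher, blue points (754) lower, slate points (2852) were held within 2-fold and pale grey points (1368) were neither. ARO10, DAL5 and UGA4 lie far above the line, and MF(ALPHA)1, MF(ALPHA)2 and BAP3 far below it.

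Among ORFs with a mean log2 CPM of at least 2, a limit that leaves out HMRA1, the 8 largest rises were in ARO10, DAL5, DAL4, YLR053C, DIP5, UGA4, MFA2 and PUT1, most of them genes for the uptake or breakdown of nitrogen sources. ARO10, a decarboxylase of the Ehrlich pathway that turns amino acid skeletons into fusel alcohols, had 19375 and 30922 normalised reads in dal80Δ Pro, 188 and 159 in WT Pro and 6 and 18.7 in WT Glu. Its log2 fold-change over WT Glu was 11.03 ± 0.44 (SE; limma, adjusted p = 2.8e-06). DAL5, the allantoate permease, had 111413 and 113444 normalised reads in dal80Δ Pro, 18479 and 18160 in WT Pro and 134 and 154 in WT Glu, a log2 fold-change of 9.60 ± 0.14 (adjusted p = 2.6e-08). In both genes the 3 groups were separate, with the mutant at the top. YLR053C, an ORF of unknown function, had 1154 and 1581 reads in dal80Δ Pro against 1 and 1 in WT Glu, a ratio of 841 (95% counting interval 233 to 6950).

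Of the 8 largest falls under the same limit, 5 were the α-specific genes. The other 3 were BAP3 and BAP2, permeases for branched-chain amino acids, and TPO2, a polyamine exporter. BAP3 had 11.6 and 22.6 normalised reads in dal80Δ Pro, 5.48 and 4.39 in WT Pro and 5294 and 5518 in WT Glu, a log2 fold-change of -8.29 ± 0.29 (adjusted p = 1.5e-06). TPO2 had 102 and 118 in dal80Δ Pro, 163 and 258 in WT Pro and 4384 and 5693 in WT Glu. BAP3 was called higher in dal80Δ Pro than in WT Pro (log2 fold-change 1.54, adjusted p = 0.0071), but in both genes every proline library lay far below the glutamine level.

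**Figure D2:**
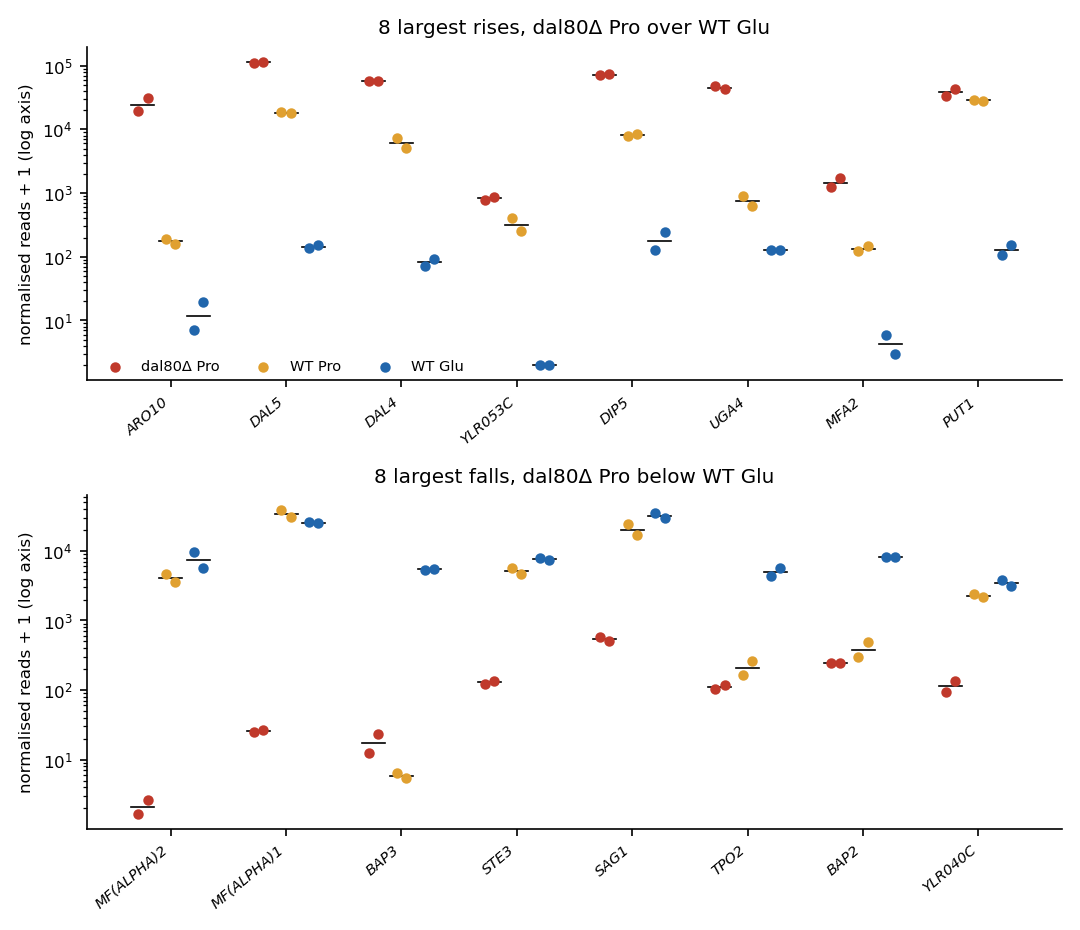
Normalised reads + 1 (log axis) in each library for the 8 largest rises (top) and the 8 largest falls (bottom) of dal80Δ Pro against WT Glu among ORFs with a mean log2 CPM of at least 2, with 2 points per group and a bar at their mean on the log scale. For DAL5 the dal80Δ Pro libraries sit at 111413 and 113444, above both WT Pro and WT Glu, while for BAP3 dal80Δ Pro sits at 11.6 and 22.6, WT Pro at 5.48 and 4.39, and WT Glu at 5294 and 5518.

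All 9 genes for allantoin and urea use were called higher than in WT Glu, against 11.9% of all ORFs, with a median log2 fold-change of 6.72. All 9 were also called higher in dal80Δ Pro than in WT Pro, against 3.60% of all ORFs. DAL4, the allantoin permease, had 57997 and 56732 normalised reads in dal80Δ Pro, 7295 and 5015 in WT Pro and 71 and 92.4 in WT Glu. DAL7, a malate synthase, had 46771 and 45861 in dal80Δ Pro, 5156 and 4991 in WT Pro and 286 and 232 in WT Glu. DAL1, allantoinase, had 3972 and 4363 in dal80Δ Pro, 1160 and 977 in WT Pro and 23 and 41.3 in WT Glu. The order of groups was the same in the 3 genes, and the smallest change of the list was in DUR1,2, the urea amidolyase, at 5.01 ± 0.24. These 9 genes took 4.65% and 4.38% of all ORF reads in dal80Δ Pro, 1.06% and 0.823% in WT Pro and 0.0473% and 0.0334% in WT Glu.

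Of 3 genes for the use of GABA (γ-aminobutyrate), 2 were called higher (66.7%, against 11.9% of all ORFs). UGA4, the GABA permease, had 47356 and 43065 normalised reads in dal80Δ Pro, 907 and 633 in WT Pro and 125 and 129 in WT Glu, a log2 fold-change of 8.46 ± 0.18 (adjusted p = 1e-07). UGA1, GABA transaminase, had 4112 and 3985 in dal80Δ Pro, 1209 and 1065 in WT Pro and 1163 and 1690 in WT Glu. UGA1 was thus apart from WT Glu only in the mutant, while WT Pro was held within 2-fold. UGA2, the succinate semialdehyde dehydrogenase of the same pathway, had 785 and 834 in dal80Δ Pro against 926 and 1362 in WT Glu and was held within 2-fold.

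Promoters are shown for 3 genes of allantoin and urea use, a list whose members were all called higher, and for UGA4, the GABA use gene with the largest rise, because Dal80, Gzf3, Gln3 and Gat1 bind GATAA motifs. The windows lie before the start codon in build R64, are written 5′ to 3′ on the coding strand of each gene, and are credited to RefSeq. Capitals mark GATAA or its reverse complement TTATC.
DAL7 (chrIX:414817-415029, minus strand): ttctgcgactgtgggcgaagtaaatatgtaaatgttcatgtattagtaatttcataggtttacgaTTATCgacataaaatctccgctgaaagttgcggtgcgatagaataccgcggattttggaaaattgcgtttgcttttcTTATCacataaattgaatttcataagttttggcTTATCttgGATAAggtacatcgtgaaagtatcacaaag
DAL1 (chrIX:407743-407992, minus strand): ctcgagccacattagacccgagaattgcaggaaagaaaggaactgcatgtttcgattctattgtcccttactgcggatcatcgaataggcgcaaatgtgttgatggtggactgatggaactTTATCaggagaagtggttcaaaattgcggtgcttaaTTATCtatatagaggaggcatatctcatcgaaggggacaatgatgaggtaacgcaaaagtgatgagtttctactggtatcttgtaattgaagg
DAL4 (chrIX:408118-408367, plus strand): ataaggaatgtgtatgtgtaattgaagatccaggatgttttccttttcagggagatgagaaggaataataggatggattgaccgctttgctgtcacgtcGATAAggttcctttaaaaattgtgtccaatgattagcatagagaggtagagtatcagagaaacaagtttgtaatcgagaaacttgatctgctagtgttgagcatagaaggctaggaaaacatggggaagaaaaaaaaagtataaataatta
UGA4 (chrIV:83920-84169, plus strand): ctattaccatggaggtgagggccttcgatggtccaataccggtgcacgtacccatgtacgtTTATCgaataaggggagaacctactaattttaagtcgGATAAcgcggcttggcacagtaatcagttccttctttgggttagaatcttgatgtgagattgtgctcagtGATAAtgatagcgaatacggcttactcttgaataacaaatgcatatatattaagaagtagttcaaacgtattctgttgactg
The printed windows hold 4 motifs in DAL7, 2 in DAL1, 1 in DAL4 and 3 in UGA4. Over the 250 bases from 350 to 101 before the start codon, counted on both strands, all 9 genes of allantoin and urea use held at least 1 motif and 7 held at least 2, against 52.6% and 17.1% of all 5626 windows. At least 2 motifs stood in 28.6% of windows of genes called higher, 11.5% of those called lower and 16.4% of those held within 2-fold. A match is a stretch of letters and not a measured binding site, and BAP3 held 0 matches in its window.

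All 3 genes for proline use were called higher than in WT Glu in both proline groups. Of all ORFs, 11.9% were called higher in dal80Δ Pro and 13.0% in WT Pro. PUT1, proline oxidase, had 33866 and 43723 normalised reads in dal80Δ Pro, 29005 and 28143 in WT Pro and 106 and 154 in WT Glu. PUT2, the next enzyme of proline breakdown, had 11389 and 13482 in dal80Δ Pro, 11327 and 11575 in WT Pro and 1309 and 1723 in WT Glu. For PUT1 the dal80Δ Pro level exceeded WT Pro by 0.43 on the log2 scale (limma, adjusted p = 0.16), so a difference between the proline groups was not called. PUT4, the proline permease, had 13491 and 13149 in dal80Δ Pro, 5415 and 4768 in WT Pro and 48 and 148 in WT Glu.

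The general amino acid permease gene GAP1 had 184624 and 196335 normalised reads in dal80Δ Pro, 71073 and 68427 in WT Pro and 7563 and 10523 in WT Glu, a log2 fold-change of 4.42 ± 0.24 (adjusted p = 1.5e-05). By reads per nucleotide, which allows genes of different length to be compared, GAP1 ranked 4 among the ORFs in dal80Δ Pro (density 105 reads per nucleotide), 16 in WT Pro and 494 in WT Glu. DAL5 ranked 9 in dal80Δ Pro, 105 in WT Pro and 4841 in WT Glu. CPS1, a vacuolar carboxypeptidase, ranked 10 in dal80Δ Pro, 117 in WT Pro and 562 in WT Glu. These NCR-sensitive transcripts were thus among the 10 densest of the mutant.

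Ammonium and amino acid breakdown genes followed in part. MEP2 and MEP1, ammonium permeases, were called higher, and the other 4 members of the ammonium list were not called (without WT Glu replicate 2, 4 of the 6 were called higher). MEP2 had 84334 and 93933 normalised reads in dal80Δ Pro, 44432 and 37788 in WT Pro and 3585 and 2703 in WT Glu. Of 8 genes for arginine, asparagine and serine breakdown, 5 were higher (62.5%, against 11.9% of all ORFs). Lower was 1, the cytosolic asparaginase gene ASP1 (12.5%, near the 13.4% of all ORFs). Of these 5, 4 are the cell wall asparaginase copies ASP3-1 to ASP3-4, near-identical genes whose reads cannot be assigned with certainty, at log2 fold-changes of 4.26 to 4.29. The fifth was CHA1, the serine and threonine deaminase, with 730 and 686 normalised reads in dal80Δ Pro, 144 and 126 in WT Pro and 81 and 84.6 in WT Glu. CAR1, arginase, had 698 and 529 in dal80Δ Pro against 1098 and 815 in WT Glu and was not called.

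The 8 permease genes under the SPS sensor, which reads amino acids outside the cell, split in 3 ways. BAP2, BAP3, TAT1, TAT2 and GNP1 were called lower in dal80Δ Pro, against 13.4% of all ORFs. DIP5, the dicarboxylic amino acid permease, had 71543 and 73517 normalised reads in dal80Δ Pro, 7920 and 8467 in WT Pro and 129 and 245 in WT Glu. AGP1, a broad amino acid permease, had 15082 and 15059 in dal80Δ Pro, 756 and 646 in WT Pro and 23932 and 23818 in WT Glu. AGP1 was thus lower in WT Pro, at a log2 fold-change of -5.09, and back within 2-fold of the glutamine level in the mutant, at -0.66 ± 0.14. PTR2, the di- and tripeptide transporter, had 7659 and 8662 in dal80Δ Pro, 223 and 216 in WT Pro and 2857 and 4328 in WT Glu. PTR2 went past the glutamine level by 1.21 ± 0.20 on the log2 scale (adjusted p = 0.0014), a call lost without either dal80Δ Pro library (adjusted p 0.012 and 0.016) and, at a log2 fold-change of 0.91, without WT Glu replicate 1.

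Among 15 other amino acid and peptide permeases, 5 were higher (33.3%, against 11.9% of all ORFs) and 2 lower (13.3%, near the 13.4% of all ORFs). Under scaling to total ORF reads 9 were higher and 1 lower. OPT2, an oligopeptide transporter, had 29615 and 35174 normalised reads in dal80Δ Pro, 7586 and 9022 in WT Pro and 133 and 160 in WT Glu. MUP1, the methionine permease, had 5540 and 4924 in dal80Δ Pro, 414 and 728 in WT Pro and 24427 and 25447 in WT Glu. MUP1 was therefore lower than in WT Glu in both proline groups, with the mutant between the other groups.

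Of the GATA factors themselves, GAT1 had 3897 and 3634 normalised reads in dal80Δ Pro, 5380 and 5027 in WT Pro and 699 and 698 in WT Glu, and stayed apart from the glutamine level in both proline groups. GZF3 had 1833 and 1736 in dal80Δ Pro, 832 and 666 in WT Pro and 353 and 396 in WT Glu, so the mRNA of the remaining GATA repressor was highest in the mutant (2.25 ± 0.14 over WT Glu, adjusted p = 3e-05). GLN3 had 628 and 572 in dal80Δ Pro, 1424 and 1314 in WT Pro and 460 and 443 in WT Glu. The GLN3 level in the mutant was back within 2-fold of glutamine (0.41 ± 0.12). URE2 was held within 2-fold in the mutant (0.21 ± 0.11) and was not called in WT Pro. Under scaling to total ORF reads GLN3 was called higher at 1.07.

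Of 11 pathway activator genes, a list that also held GCN4, RTG1 and RTG3, 4 were called higher (36.4%, against 11.9% of all ORFs). ARO80, the activator of ARO9 and ARO10, had 690 and 901 normalised reads in dal80Δ Pro, 284 and 223 in WT Pro and 186 and 149 in WT Glu. UGA3, the activator of the GABA genes, had 1962 and 1602 in dal80Δ Pro, 5858 and 5263 in WT Pro and 551 and 564 in WT Glu. These activators differed in order, since ARO80 was highest in the mutant and UGA3 highest in WT Pro. LYS14 and DAL82 were the other members called, DAL82 at a log2 fold-change of 1.01 that fell below 1 without dal80Δ Pro replicate 2 (0.99) or WT Glu replicate 1 (0.99).

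Glutamate metabolism differed between isoenzymes. GDH3, a glutamate dehydrogenase that makes glutamate, had 10841 and 9781 normalised reads in dal80Δ Pro, 687 and 473 in WT Pro and 83 and 138 in WT Glu. GDH1, its close paralog and the main enzyme on glucose, had 53377 and 54896 in dal80Δ Pro, 9542 and 8921 in WT Pro and 32224 and 28759 in WT Glu. GDH1 was thus lowest in WT Pro, and its log2 fold-change of 0.83 ± 0.18 over WT Glu was short of 1. Under scaling to total ORF reads GDH1 was called higher in dal80Δ Pro than in WT Glu, at 1.49. All 5 genes of the glutamate and glutamine list were called higher there, against 3 on the deposited scaling. GDH2, which breaks glutamate down, had 6637 and 9075 in dal80Δ Pro, 10130 and 14340 in WT Pro and 1131 and 1520 in WT Glu. GLN1, glutamine synthetase, overlapped between the proline groups, with 22535 and 24957 in dal80Δ Pro, 22172 and 26701 in WT Pro and 3934 and 3031 in WT Glu.

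Of 12 genes of the Ehrlich pathway, 4 were called higher (33.3%, against 11.9% of all ORFs) and 5 lower (41.7%, against 13.4%). Under scaling to total ORF reads 2 were lower. The list's median was -0.73, and -0.84 to -0.63 without 1 library in turn. ARO9, the aromatic aminotransferase that acts before ARO10, had 11225 and 20544 normalised reads in dal80Δ Pro, 117 and 189 in WT Pro and 49 and 185 in WT Glu. The WT Pro and WT Glu libraries of ARO9 overlapped, and only the mutant stood apart. PDC6, a minor pyruvate decarboxylase, had 10640 and 4930 in dal80Δ Pro, 220 and 255 in WT Pro and 26 and 35.4 in WT Glu. ADH5, an alcohol dehydrogenase, fell in the mutant, with 414 and 544 in dal80Δ Pro, 3816 and 4639 in WT Pro and 2426 and 1863 in WT Glu.

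The 3 groups were then read together. Because WT Pro and dal80Δ Pro were both set against the same WT Glu libraries, and dal80Δ Pro was also set against WT Pro, the counts that follow describe the levels and were not tested. In WT Pro, 733 ORFs were called higher than in WT Glu (13.0%) and 878 lower (15.6%). In the mutant, 250 of these (4.43% of all tested) were back within 2-fold of the glutamine level, of which 137 were higher and 113 lower in WT Pro. Both proline groups were apart on the same side in 950 ORFs (16.8%), 413 of them higher and 537 lower. Only 16 (0.283%) lay past the glutamine level in the mutant. In none of these classes were 169 that were higher and 226 that were lower in WT Pro. The classes depend on scaling: with libraries scaled to total ORF reads, 379 ORFs were back, of which 30 were among the 250, 1771 were kept apart, with 504 of the 950, and 18 were past, with 6 of the 16.

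**Figure D3:**
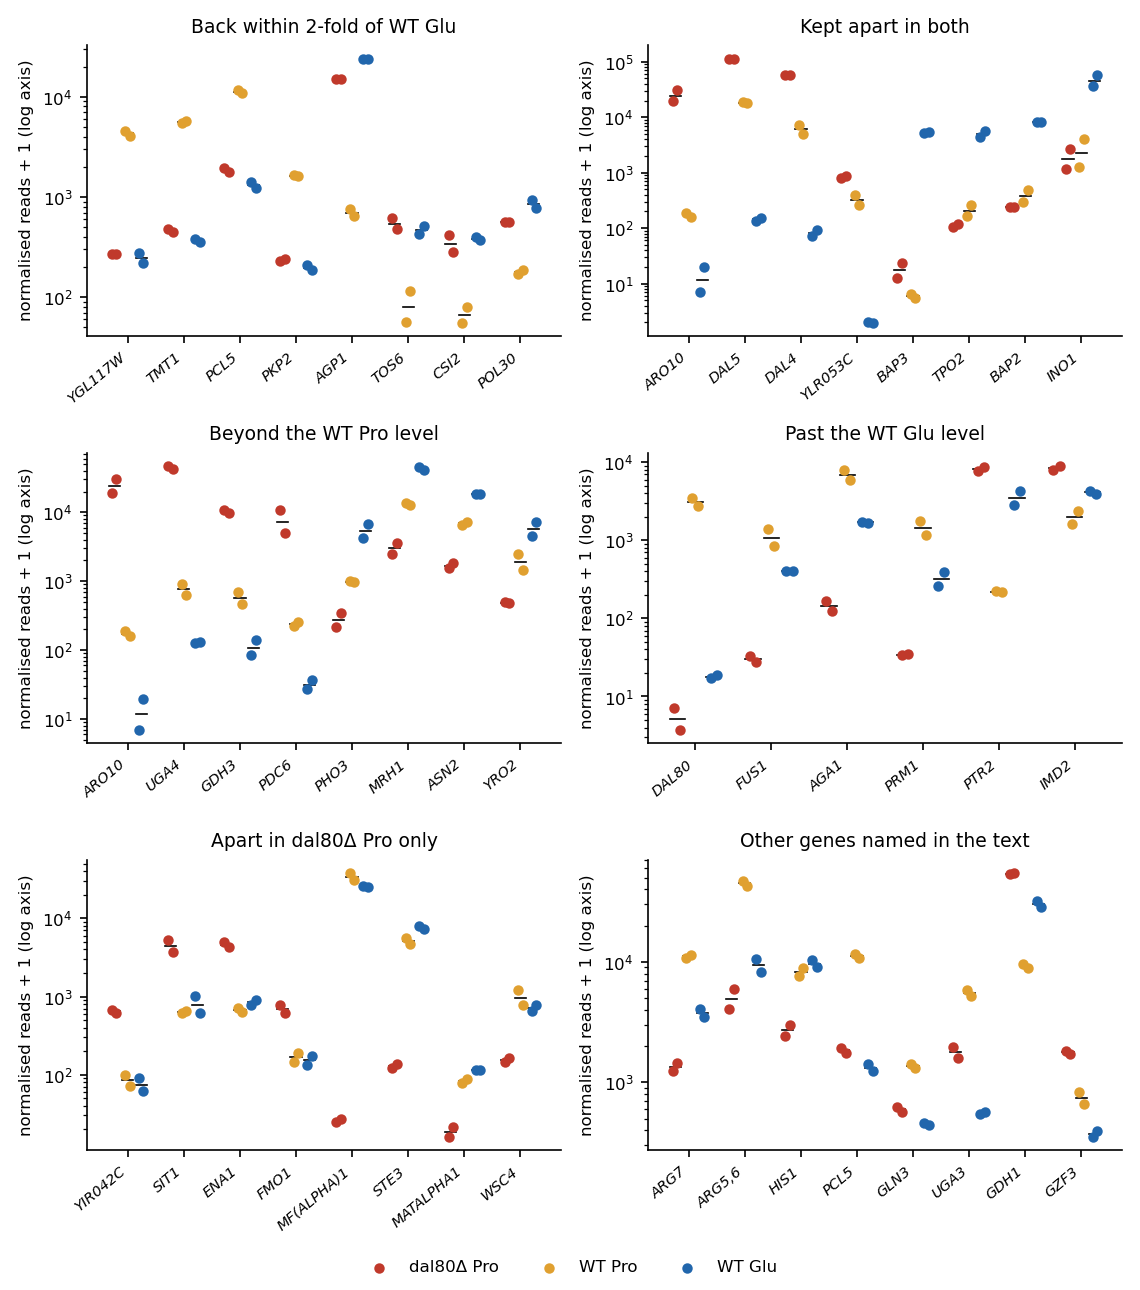
Normalised reads + 1 (log axis) in each library for genes named by class, with dal80Δ Pro, WT Pro and WT Glu from left to right, 2 points per group and a bar at their mean on the log scale. The panel of genes back within 2-fold rests on the deposited scaling. There PCL5 has 1939 and 1767 normalised reads in dal80Δ Pro, close to the 1422 and 1235 of WT Glu, while WT Pro has 11700 and 10837.

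Genes that were high in WT Pro and back in the mutant were led by YGL117W, TMT1, PCL5 and PKP2. TMT1, a trans-aconitate methyltransferase, had 476 and 445 normalised reads in dal80Δ Pro, 5518 and 5687 in WT Pro and 377 and 352 in WT Glu. PCL5, a cyclin that promotes turnover of the amino acid starvation activator Gcn4, had 1939 and 1767 in dal80Δ Pro, 11700 and 10837 in WT Pro and 1422 and 1235 in WT Glu. In both genes WT Pro lay far above the other groups. Under scaling to total ORF reads PCL5 was called higher in dal80Δ Pro than in WT Glu, at a log2 fold-change of 1.14. Of the 137 genes of this kind, 58 (42.3%) were on the study's list of genes with Gcn4 sites in their promoter, which held 20.8% of all ORFs tested, and 23.7% of the 413 genes that stayed high. Of the 137, 4 (2.92%) were among 205 genes of earlier nitrogen screens, near the 3.63% that these made up of all ORFs tested.

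Arginine synthesis was high in WT Pro throughout, with all 10 genes called, and all 10 were called lower in dal80Δ Pro than in WT Pro, against 4.43% of all ORFs. The median log2 fold-change over WT Glu was -0.57 in dal80Δ Pro, or 0.09 when scaled to total ORF reads, and 1.63 in WT Pro. ARG1, argininosuccinate synthetase, had 13208 and 16251 normalised reads in dal80Δ Pro, 62152 and 62294 in WT Pro and 12128 and 9655 in WT Glu. CPA1, the small subunit of carbamoyl phosphate synthetase, had 9840 and 10617 in dal80Δ Pro, 24664 and 24854 in WT Pro and 11108 and 9363 in WT Glu, so that the dal80Δ Pro and WT Glu libraries overlapped. In all, 5 of the 10 were back within 2-fold. Under scaling to total ORF reads 2 of the 10 were called higher, 1 of them ARG1 at a log2 fold-change of 1.10. ARG5,6, which encodes the enzymes before ARG7 in the pathway, had 4064 and 5930 in dal80Δ Pro, 46974 and 43091 in WT Pro and 10646 and 8275 in WT Glu, and was neither called nor held (-0.94 ± 0.23). ARG7, ornithine acetyltransferase, went past, with 1239 and 1450 in dal80Δ Pro, 10798 and 11461 in WT Pro and 4067 and 3460 in WT Glu (-1.48 ± 0.15, adjusted p = 0.00018). Without 1 library in turn, between 1 and 3 of the 10 were called lower, and 3 without dal80Δ Pro replicate 2. Under scaling to total ORF reads ARG7 was not called, at -0.82.

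Synthesis of histidine, aromatic and branched-chain amino acids lay below glutamine. Of 26 genes, 18 were called lower in dal80Δ Pro (69.2%, against 13.4% of all ORFs) and 1 higher (3.85%, against 11.9%). Another 6 were held within 2-fold (23.1%, against 50.5%). The list's median was -1.33, or -0.67 under scaling to total ORF reads, where 7 were called lower. In WT Pro 2 of the 26 were called lower and 2 higher, against 15.6% and 13.0% of all ORFs. LEU9, an isopropylmalate synthase, had 943 and 1000 normalised reads in dal80Δ Pro, 2547 and 2843 in WT Pro and 4550 and 3399 in WT Glu. LEU4, its isoenzyme, had 4490 and 6370 in dal80Δ Pro, 30855 and 31236 in WT Pro and 16961 and 18861 in WT Glu. HIS1, the first enzyme of histidine synthesis, had 2441 and 3004 in dal80Δ Pro, 7673 and 8906 in WT Pro and 10461 and 8997 in WT Glu. The mutant was the lowest group in each of these genes. The member called higher was ARO7, chorismate mutase, at a log2 fold-change of 1.33. Of 8 lysine synthesis genes 4 were called lower (50%, against 13.4% of all ORFs), and 0 under scaling to total ORF reads. Their median was -1.05, or -0.83 without dal80Δ Pro replicate 1 and -0.39 under scaling to total ORF reads.

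Of the 113 genes that were low in WT Pro and back in the mutant, some belonged to cell division. Of 23 genes of G1/S and DNA replication, 14 were called lower in WT Pro and 4 in dal80Δ Pro, 14 were held within 2-fold in the mutant (60.9%, against 50.5% of all ORFs), 5 counted as back, and the median was -0.40 in dal80Δ Pro, or 0.26 under scaling to total ORF reads, against -1.32 in WT Pro. POL30, the replication clamp PCNA, had 567 and 563 normalised reads in dal80Δ Pro, 169 and 185 in WT Pro and 922 and 782 in WT Glu. RNR1, the large subunit of ribonucleotide reductase, had 5298 and 5766 in dal80Δ Pro, 2029 and 1622 in WT Pro and 14827 and 14954 in WT Glu. POL30 was held within 2-fold and RNR1 was called lower, yet in both the mutant lay between WT Pro and WT Glu. Without WT Glu replicate 2, 7 of the 23 were called lower. Of 10 histone genes, 7 were held within 2-fold in dal80Δ Pro and 7 were called lower in WT Pro, and 5 counted as back, with medians of -0.19 in dal80Δ Pro, or 0.47 under scaling to total ORF reads, and -1.22 in WT Pro.

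Of the 16 genes past the glutamine level, 14 were high in WT Pro and low in the mutant. They were DAL80 itself, FUS1, AGA1, PRM1, PRM6 and FIG2 of the pheromone response, ARG7 and ARO3 of amino acid synthesis, the exporters PDR12 and SSU1, and CLD1, NDJ1, YLR042C and YLR152C. The other 2 were PTR2 and IMD2. PDR12, a weak acid exporter, had 1491 and 2367 normalised reads in dal80Δ Pro, 23007 and 24332 in WT Pro and 5118 and 6376 in WT Glu (-1.60 ± 0.23, adjusted p = 0.0008). SSU1, a sulfite exporter, had 592 and 661 in dal80Δ Pro, 3673 and 2971 in WT Pro and 1375 and 1565 in WT Glu. IMD2, an IMP dehydrogenase of GTP synthesis, had 7873 and 9031 in dal80Δ Pro, 1598 and 2411 in WT Pro and 4273 and 3965 in WT Glu, and its call was lost without either dal80Δ Pro library (adjusted p 0.02 and 0.031) or, at a log2 fold-change of 0.98, without WT Glu replicate 2. The count fell to 10 without dal80Δ Pro replicate 1. ARO3, NDJ1 and YLR152C each lost their call without dal80Δ Pro replicate 1 (adjusted p 0.012, 0.032 and 0.025) and without WT Glu replicate 1, and YLR042C without any 1 of 5 libraries. Under scaling to total ORF reads ARG7, ARO3, CLD1, FIG2, NDJ1, PDR12, SSU1, YLR042C and YLR152C were not called.

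The pheromone response list of 29 genes held 12 lower (41.4%, against 13.4% of all ORFs) and 2 higher (6.9%, against 11.9%). Another 12 were within 2-fold (41.4%, against 50.5%), beside 13 called higher in WT Pro. FUS1, needed for cell fusion, had 32.1 and 27.0 normalised reads in dal80Δ Pro, 1396 and 844 in WT Pro and 400 and 401 in WT Glu. FAR1, which arrests the cycle in response to pheromone, had 398 and 368 in dal80Δ Pro, 4218 and 3254 in WT Pro and 2122 and 2057 in WT Glu. The MATa mutant was thus lowest and the MATα wild type in proline highest, and the part of mating type in this order was not tested. The list's median was -0.28, or 0.38 under scaling to total ORF reads.

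In 56 ORFs (0.992%) the mutant lay on the same side of glutamine as WT Pro and was also called against WT Pro in that direction, 49 of them higher and 7 lower. Of these 49, 34 (69.4%) were among the 205 genes of earlier nitrogen screens, against 3.63% of all ORFs tested. Those screens included a study of Dal80-regulated genes, so the overlap was not independent of how this class was defined. The 7 lower genes included PHO3, an acid phosphatase, ASN2, an asparagine synthetase, and MRH1 and YRO2, related membrane proteins. ASN2 had 1537 and 1828 normalised reads in dal80Δ Pro, 6588 and 7251 in WT Pro and 18191 and 18463 in WT Glu. MRH1 had 2517 and 3555 in dal80Δ Pro, 13819 and 12616 in WT Pro and 45199 and 41066 in WT Glu. In both genes the 3 groups did not overlap. The count of 56 fell to 28 without dal80Δ Pro replicate 1, 36 without dal80Δ Pro replicate 2 and 34 without WT Pro replicate 1.

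A further 160 ORFs (2.83%) were apart from WT Glu in the mutant while WT Pro was held within 2-fold, 75 of them higher and 85 lower, and without dal80Δ Pro replicate 1 the count was 104. Under scaling to total ORF reads there were 80, of which 11 were among the 160. ENA1, a sodium pump, had 4913 and 4348 normalised reads in dal80Δ Pro, 705 and 626 in WT Pro and 783 and 905 in WT Glu. WSC4, a cell wall stress sensor, had 146 and 165 in dal80Δ Pro, 1205 and 770 in WT Pro and 644 and 781 in WT Glu. Both were set apart by the mutant alone. SIT1, a siderophore transporter, had 5302 and 3711 in dal80Δ Pro, 611 and 644 in WT Pro and 1004 and 609 in WT Glu. The iron regulon as listed held 11 of 18 genes higher in dal80Δ Pro (61.1%, against 11.9% of all ORFs), beside 5 higher in WT Pro. Its median was 1.39, or 1.19 without dal80Δ Pro replicate 1. TIS11, which degrades mRNAs in iron shortage, had 1168 and 627 in dal80Δ Pro, 43.2 and 98.9 in WT Pro and 62 and 50.1 in WT Glu. FIT2, a cell wall mannoprotein that holds siderophores, had 2754 and 1234 in dal80Δ Pro, 86.4 and 125 in WT Pro and 187 and 220 in WT Glu. Replicate 1 of dal80Δ Pro was the higher of its pair in these 3 iron genes, and both replicates were above every wild-type library.

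Of 137 cytosolic ribosomal protein genes, 61 were called lower in dal80Δ Pro (44.5%, against 13.4% of all ORFs). Another 34 were held within 2-fold (24.8%, against 50.5%). The list's median was -0.92, or -0.26 under scaling to total ORF reads, where 16 were lower and 3 higher. In WT Pro 101 were called lower, against 15.6% of all ORFs. Without dal80Δ Pro replicate 1 the mutant's count was 23. RPL2B, a protein of the large subunit, had 12618 and 16761 normalised reads in dal80Δ Pro, 9353 and 12456 in WT Pro and 61372 and 61658 in WT Glu. Glycolysis and fermentation had 13 of 17 genes lower (76.5%, against 13.4% of all ORFs), and 9 under scaling to total ORF reads. The median was -1.69, or -1.62 without dal80Δ Pro replicate 1. ENO2, enolase, had 52199 and 63909 in dal80Δ Pro, 26198 and 33906 in WT Pro and 292400 and 318615 in WT Glu. Both genes were far below WT Glu in every proline library. Many ribosomal protein and glycolytic genes have close paralogs, so the split of reads between copies is uncertain.

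Other lists were lower in part. ER glycosylation had 20 of 27 genes lower (median -1.35, and 3 lower when scaled to total ORF reads), such as OST1, a subunit of oligosaccharyltransferase, at 2008 and 2182 normalised reads in dal80Δ Pro, 1989 and 1963 in WT Pro and 6943 and 7208 in WT Glu. Sterol synthesis had 9 of 24 lower (37.5%, against 13.4% of all ORFs), and 2 lower and 1 higher under scaling to total ORF reads. The 9 included ERG4, the last enzyme of the pathway, at 2314 and 2639 in dal80Δ Pro, 2487 and 2438 in WT Pro and 13038 and 12227 in WT Glu. In these genes both proline groups lay far below WT Glu. Sulfate assimilation and methionine synthesis had 10 of 20 lower (50%) and 2 higher (10%, against 11.9% of all ORFs). Under scaling to total ORF reads there were 2 lower and 3 higher. SUL1, a sulfate permease, stood at 35241 and 27931 in dal80Δ Pro, 5725 and 8234 in WT Pro and 1181 and 1621 in WT Glu. Heat shock proteins had 7 of 18 lower (38.9%). Their median was -0.56, 0.11 when scaled to total ORF reads, and -1.28 to -0.35 without 1 library in turn.

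Ribosome assembly had 7 of 37 genes higher (18.9%, against 11.9% of all ORFs), 4 lower (10.8%, against 13.4%) and 15 held within 2-fold. Without dal80Δ Pro replicate 1 there were 4 higher and 0 lower, and under scaling to total ORF reads 19 higher and 0 lower. NOP16, a large subunit assembly factor, had 580 and 620 normalised reads in dal80Δ Pro, 233 and 322 in WT Pro and 147 and 126 in WT Glu. The citrate cycle and glyoxylate shunt had 5 of 22 genes higher (22.7%), with a median of -0.08, or 0.58 when scaled to total ORF reads. The higher ones included CIT2, the peroxisomal citrate synthase, at 5471 and 5559 in dal80Δ Pro, 1914 and 1587 in WT Pro and 344 and 365 in WT Glu. Vacuolar proteases and inhibitors had 4 of 10 higher (40%). They were led by CPS1, with 114403 and 121604 in dal80Δ Pro, 18116 and 16738 in WT Pro and 6472 and 7808 in WT Glu. In each of these genes the mutant was the highest group. Without dal80Δ Pro replicate 1 the 4 vacuolar genes became 2, and under scaling to total ORF reads 7.

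Of the remaining lists, autophagy had 3 of 17 genes higher (17.6%, against 11.9% of all ORFs), 1 without dal80Δ Pro replicate 1 and 13 under scaling to total ORF reads. Hexose transporters had 2 of 14 tested higher (14.3%), 0 without dal80Δ Pro replicate 1, 5 without WT Glu replicate 2 and 7 under scaling to total ORF reads. Trehalose and glycogen had 2 of 16 lower (12.5%, near the 13.4% of all ORFs). The median was 0.01, and -0.74 to 0.48 without 1 library in turn. Under scaling to total ORF reads it was 0.67, with 1 higher and 0 lower. The phosphate regulon had 4 of 15 lower (26.7%), with a median of -0.66, and -0.73 to -0.59 without 1 library in turn. Its balance turned under scaling to total ORF reads, with 4 higher, 2 lower and a median of -0.02. Thiamine and biotin had 6 of 22 lower (27.3%), with a median of -0.92, and -1.34 to -0.515 without 1 library in turn. With scaling to total ORF reads 4 of the 22 were lower and 2 higher, and the median was -0.28. Of 8 mitochondrially encoded proteins, 4 were held within 2-fold, and OLI1, a subunit of ATP synthase, had 3813 and 3768 normalised reads in dal80Δ Pro, 6957 and 6649 in WT Pro and 2379 and 2051 in WT Glu. The log2 fold-change of OLI1 over WT Glu was 0.78 ± 0.13 (limma, adjusted p = 0.0018), short of the fold threshold. Under scaling to total ORF reads OLI1 was called higher, at 1.44. There 3 of the 8 were called higher, against 0 on the deposited scaling.

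**Figure D4:**
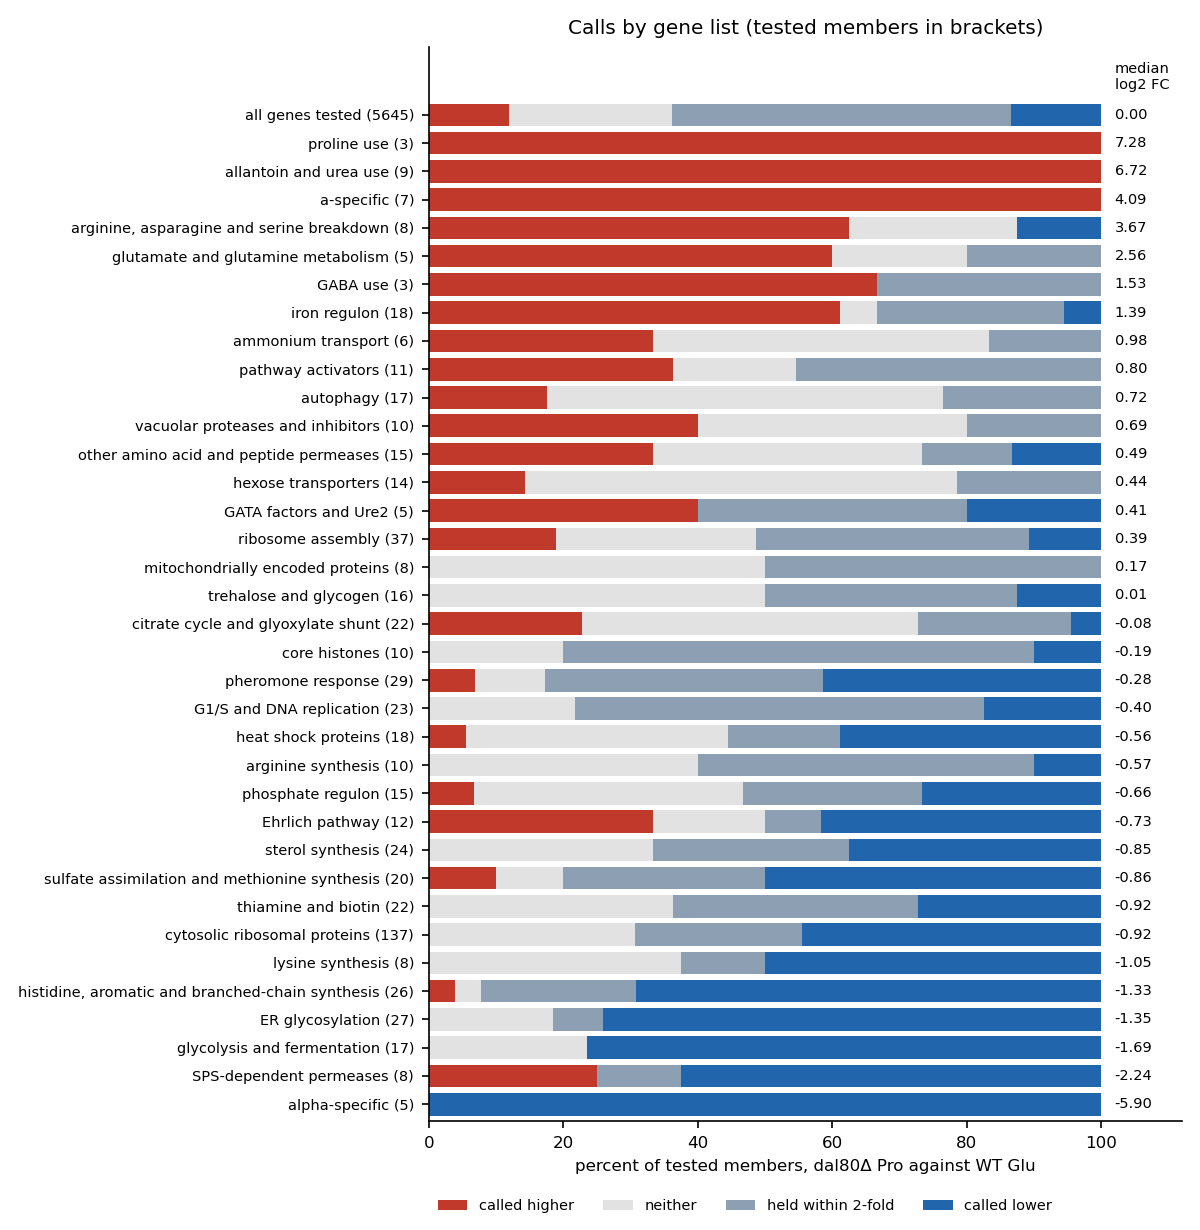
Percent of the tested members of each gene list (rows, number tested in brackets) that were called higher (red), neither called nor held (pale grey), held within 2-fold (slate) or called lower (blue) in dal80Δ Pro against WT Glu, with the median log2 fold-change at the right. The top row gives all 5645 ORFs, with 11.9% higher and 13.4% lower, and allantoin and urea use (9 of 9) and the α-specific genes (5 of 5 lower) lie at the ends.

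Lists taken from the study's own tables were read last. Of the 205 genes of earlier nitrogen screens, 110 were called higher in dal80Δ Pro (53.7%, against 11.9% of all ORFs) and 20 lower (9.76%, against 13.4%). Their median was 1.41, and 1.278 to 1.545 without 1 library in turn. These genes had been selected for their response to nitrogen source, and some for regulation by Dal80. Among genes that the study lists with Dal80 at the promoter only, by ChIP-seq in proline, 1122 were tested. Of these, 140 were higher (12.5%, against 11.9% of all ORFs) and 229 lower (20.4%, against 13.4%). Their median was -0.18, or -0.14 without dal80Δ Pro replicate 1. Under scaling to total ORF reads 348 were higher and 65 lower (median 0.49). Of 139 tested genes listed with Dal80 across the ORF as well, 37 were higher (26.6%) and 33 lower (23.7%). Their median was 0.08, or 0.10 without dal80Δ Pro replicate 1. Under scaling to total ORF reads 54 were higher and 15 lower (median 0.70). The 4347 tested genes on neither list of bound promoters nor ORFs had 490 higher (11.3%) and 488 lower (11.2%).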

How the data were processed

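Strand-specific RNA-seq was made from rRNA-depleted total RNA of 6 cultures, 2 biological replicates per group. The authors mapped reads to build R64 with TopHat, counted them per feature and deposited a table of 11987 features. One WT Glu column holds whole read counts as deposited, and the 5 other columns hold a signal, the counts multiplied by 1 factor per library. The deposited factors (0.6829 and 0.5507 in dal80Δ Pro, 0.6856 and 0.7323 in WT Pro, 1 and 0.9832 in WT Glu) lie close to median-of-ratios factors, whereas the study's methods describe normalisation to ORF reads. Whole reads were recovered for 100% of values (tolerance 1e-06 of a read). Also present were 6 empty lines, reads per nucleotide (a deposited signal, used for ranks) and the authors' mean columns, which were not used for tests.

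ORFs were kept by filterByExpr of edgeR 4.0.16 on recovered reads (5645 of 5791). The main test was limma 3.58.1 in R 4.3.3 (trend, 3 group terms, 6 libraries) on log2(normalised reads + 1), which understates the change of low genes, with Benjamini-Hochberg adjustment over 5645 ORFs. The edgeR quasi-likelihood test and DESeq2 1.42.0 on recovered reads, other scalings, pseudocounts and filters, a replicate block, fits without 1 library, and a 99% interval were alternatives. Intervals of count ratios cover counting error only. The code was tested on simulated data. Members, the 35 gene lists and the 4 lists from tables of the study (205, 1125, 144 and 1196 genes) were chosen with earlier results of these data known. Named genes were DAL80, the GATA factors, the mating markers, the 8 largest rises and falls among ORFs with a mean log2 CPM of at least 2 (which leaves out HMRA1), for each list the 4 members with the largest change, and 4 per class and direction. ADH5, ARG1, ARO3, ARO7, ASP1, CAR1, CHA1, CLD1, CPA1, DUR1,2, FAR1, FIG2, GNP1, HMRA1, LEU4, NDJ1, PDR12, PRM6, SSU1, TAT2, YLR042C and YLR152C were named after their values were seen. Promoter windows came from the RefSeq R64 genome, where 5591 of 5623 ORFs matched by identifier had the same start and end as in the table.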

Additional observations from a re-analysis of the deposited data

How the results depend on the processing

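Scaling to total ORF reads moved most counts. It gave 1888 ORFs called higher and 179 lower, 379 back within 2-fold, 1771 kept apart and 80 apart only in dal80Δ Pro, which shared 30, 504 and 11 ORFs with the 250, 950 and 160 found on the deposited scaling. All 671 higher calls of the deposited scaling were made again under it, against 179 of the 754 lower calls. The cause was not tested. Without 1 library in turn, the calls ranged from 416 to 723 higher and from 521 to 805 lower, with 163 to 281 ORFs back within 2-fold, 673 to 1039 kept apart, 10 to 19 past the glutamine level, 28 to 70 beyond WT Pro and 104 to 158 apart only in dal80Δ Pro. Of the calls, 381 higher and 492 lower were made in all 6 of these fits. The edgeR test called 751 higher and 671 lower, and DESeq2 676 higher and 767 lower.

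Replicate numbers were not stated to pair cultures, and deviations of same-numbered replicates correlated at 0.034, 0.182 and -0.238 between the 3 pairs of groups. With the replicate block, 639 ORFs were called higher, 741 lower and 2796 held within 2-fold, with 237 back, 919 kept apart, 15 past, 46 beyond and 150 apart only in dal80Δ Pro.

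Among named genes, the sign of the log2 fold-change over WT Glu turned under scaling to total ORF reads for UGA2 (0.19), HTA2 (0.042), HTZ1 (0.094), TPS1 (0.007), CSI2 (0.49), POL30 (0.073), ATO3 (0.041) and CAR1 (0.022). The median over all ORFs moved from 0.00 to 0.66 in the same step. Without 1 library the log2 fold-change ranged from -0.021 to 0.305 for YGL117W, from -0.436 to 0.103 for CSI2 and from -0.12 to 0.126 for CPA1, which stood at 0.00 and was 0.00 with DESeq2 too. The cause of these changes without 1 library was not tested. None of these genes had been called.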
